A study of Homo sapiens
Mus musculus and Homo sapiens and Mus musculus with 7 samples.

Results

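The human RNA of a mixed culture was compared with the RNA of human cells grown alone, using 2 of the 7 libraries of the series. The co-culture input is 1 library of total RNA from HEK293 cells expressing RPL22-HA that were mixed with NIH3T3 cells expressing RPL22-V5. The other is 1 library of total RNA from HEK293 in monoculture. Whether these monoculture cells carried a tag is not stated in the labels, and neither are the promoter of the transgenes, the mixing ratio and the time in culture. Both came from standard cell culture, with SMART-seq cDNA and Nextera DNA Flex libraries. The remaining 5 libraries are 1 NIH3T3 monoculture, 2 immunoprecipitates (IPs) with an HA antibody and 2 with a V5 antibody. All genes lying on human chromosomes were taken, 58721 of the 113473 genes of both species, and 14133 of them had at least 1 count in either library. Levels are given as counts per 1000000 human counts of the library (CPM). A gene was called measured at 50 CPM or more in either library, about 14 counts in the co-culture and 41 in the monoculture, and 2558 genes were.

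HEK293 is a human line from embryonic kidney with an epithelial look in culture, and NIH3T3 is a line of mouse embryo fibroblasts. RPL22 is a protein of the large ribosomal subunit, and an epitope on it lets an antibody pull down ribosomes with the messenger RNA they carry. The input is the total RNA from which such a pull-down starts, and the human reads of a mixed input are told from the mouse reads by sequence alone. A monoculture of the same line is the usual reference for what the human cells of the mix express.

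The co-culture input held 280163 human counts, 26.9% of its counts (exact Clopper-Pearson 95% interval 26.9 to 27.0), and the HEK293 monoculture held 826673. The human counts of the HA IPs were 729698 and 1213213. In the base composition of human counts the co-culture input and HEK293 lay at opposite ends, with the HA IPs between them. The mean GC content of the transcripts behind them, weighted by count and without mitochondrial genes, was 54.4% for the co-culture input, 50.2% for HEK293 and 51.3 and 52.5% in the HA IPs. Transcripts under 45% GC accounted for 11.9% of these counts in the co-culture, 29% in HEK293 and 26.0 and 20.9% in the HA IPs. Those at 60% or more accounted for 23.6% in the co-culture, 12.1% in HEK293 and 17.2 and 20.5% in the HA IPs. Each group has 1 library, so no difference below has a replicate check or a test. The intervals given cover counting error only. In a bulk sample, fewer cells of a type and less RNA per cell cannot be told apart.

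The labelled cell type was checked against its markers. HEK293-associated genes (25 listed, 6 measured) summed to 3134 CPM in the co-culture and 3089 CPM in the monoculture, a ratio of 1.01 (0.938 to 1.10). Of the 6, 2 were higher and 4 lower, none by 4-fold, with a median log2 ratio of −0.33. BEX3 made up most of both sums, at 2349 and 1962 CPM, so the ratio of the sums rests mainly on 1 gene. Of the 25 listed, 12 had 0 counts in the co-culture and 6 in HEK293. STMN1, which destabilises microtubules, stood at 182 and 452 CPM, and the epithelial keratin KRT18 at 136 and 195 CPM. Of 21 human fibroblast markers none was measured: 17 had 0 counts in the co-culture and 14 in HEK293, and their sums were 28.6 and 37.5 CPM. The NIH3T3 monoculture gave 511 counts on human genes. Scaled to the mouse counts of the co-culture, they amount to 194 counts, or 0.0693% of its human counts. TNR, which encodes the brain matrix protein tenascin-R, took 31.3% of these 511 counts. It had 125 counts in the co-culture and 6 in HEK293, and about 61 of the 125 are what NIH3T3 RNA would give at that scale. TNR is named after its values were seen and is left out of the genes described further.

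As scaled, more measured genes lay far below their HEK293 level in the mix than far above it. Among the 2558 measured genes 58 were at least 4-fold higher in the co-culture (2.27%) and 403 at least 4-fold lower (15.8%). Ratios are of counts with a prior count of 2 added in proportion to library size, and 4-fold is 2 on the log2 scale. Genes with any higher ratio numbered 1120 and with any lower ratio 1438. The median log2 ratio was −0.31, with quartiles at −1.51 and 0.75, and 46.3% of genes lay within 2-fold. The exact interval of the raw ratio left out 1 for all 58 higher and all 403 lower genes, which speaks to counting error alone. The genes were called on these same counts, so the intervals add no support to the calls. In the co-culture, 29 of the 403 lower genes had 0 counts and 166 had 1 to 3. The median level of the 403 in the co-culture was 14.3 CPM, under the filter of 50 CPM. Most of the 403 thus passed the filter only through HEK293, where they are high. The filter of 50 CPM was passed by 2263 genes in HEK293, 1756 in the co-culture and 1461 in both. On the higher side PYCR1 (log2 2.0, 298 against 217 counts) lay just inside the limit and SSH2 (2.0, 22 against 14 counts) just outside. On the lower side SNRNP40 (−2.0, 6 against 80 counts) lay just inside and RTRAF (−2.0, 35 against 422 counts) just outside.

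The pair of HA IPs shows how far 2 libraries of like origin in the series lie apart. By the same rule 2590 human genes were measured there, of which 102 were at least 4-fold higher in the first IP (3.94%) and 2 in the second (0.0772%). Their log2 ratios had an SD over genes of 0.83, with 79.8% of genes within 2-fold. Between the co-culture and HEK293 that SD was 1.47. The IPs differ from inputs in what they sample, so this pair is a yardstick of spread and not a replicate of the inputs.

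**Figure D1:**
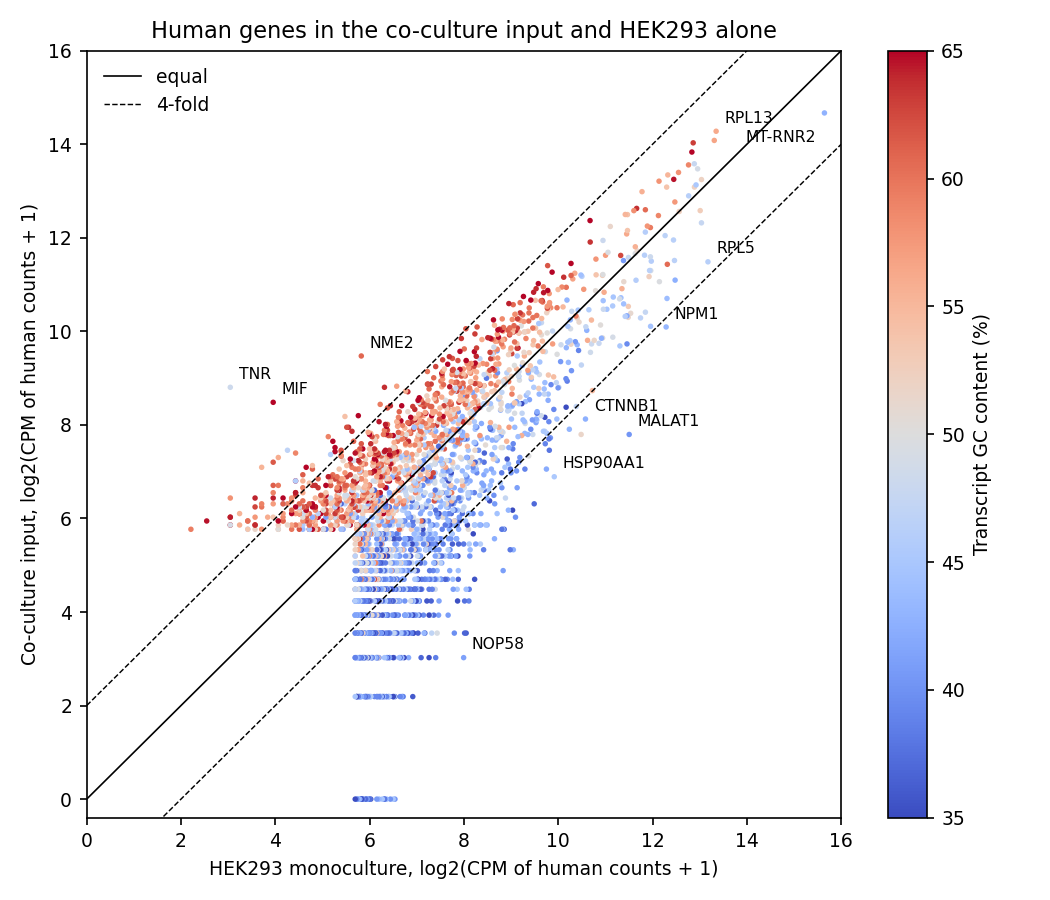
Level of each of the 2558 measured human genes in HEK293 alone (horizontal) and in the co-culture input (vertical), as log2 of CPM of human counts plus 1. Each point is 1 gene, coloured by transcript GC content; the solid line marks equal levels and the dashed lines 4-fold. Points below the lower dashed line are mostly AT-rich (blue) and points above the upper one mostly GC-rich (red).

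Genes low in the co-culture were AT-rich and genes high in it were GC-rich. GC content here is that of the longest coding transcript of the gene. Which transcript of a gene the cells expressed was not tested. The 403 lower genes had a median GC content of 40.6% and the 58 higher genes 60.1%, against 48.5% for all measured genes. Across the 2558 genes the log2 ratio ranked with GC content at a Spearman rho of 0.777, a description across genes of 2 libraries, since genes are not independent replicates. With transcript length rho was −0.312 and, between GC content and length, −0.371. Genes were also put in 5 groups of near-equal size by GC content, and within these the rho with length ran from −0.12 to 0.11. The log2 ratio of the first to the second HA IP also ranked with GC content, at a rho of −0.325 over the genes measured there.

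In the AT-richest group of genes (31.8 to 41.0% GC) the median log2 ratio was −1.83, and 223 of 512 genes were at least 4-fold lower and 0 higher. The next group, up to 45.7% GC, had a median of −1.35, again with 0 higher. In the middle group the median was −0.47, with 34 lower and 7 higher. The fourth group had a median of 0.59, with 3 lower and 14 higher. In the GC-richest group (58.6 to 71.9%) the median was 1.09, with 0 of 512 genes lower and 37 higher. The ratio therefore ran from lower to higher along GC content, crossing 1 between the middle and the fourth group.

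The levels of the same genes in the HA IPs were set beside those of the inputs. In the AT-richest group the median level was 25 CPM in the co-culture, 102 in HEK293, and 106 and 75.8 in the HA IPs. In the GC-richest group it was 175 CPM in the co-culture, 82.3 in HEK293, and 119 and 111 in the HA IPs. For AT-rich genes HEK293 was thus near the IPs and the co-culture was far below all 3. For GC-rich genes both inputs lay outside the range of the IPs, the co-culture above and HEK293 below. The HA IPs came from 2 different lysates of the mixed culture, labelled as first and second in IP order, and the labels do not say which lysate gave this input.

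**Figure D2:**
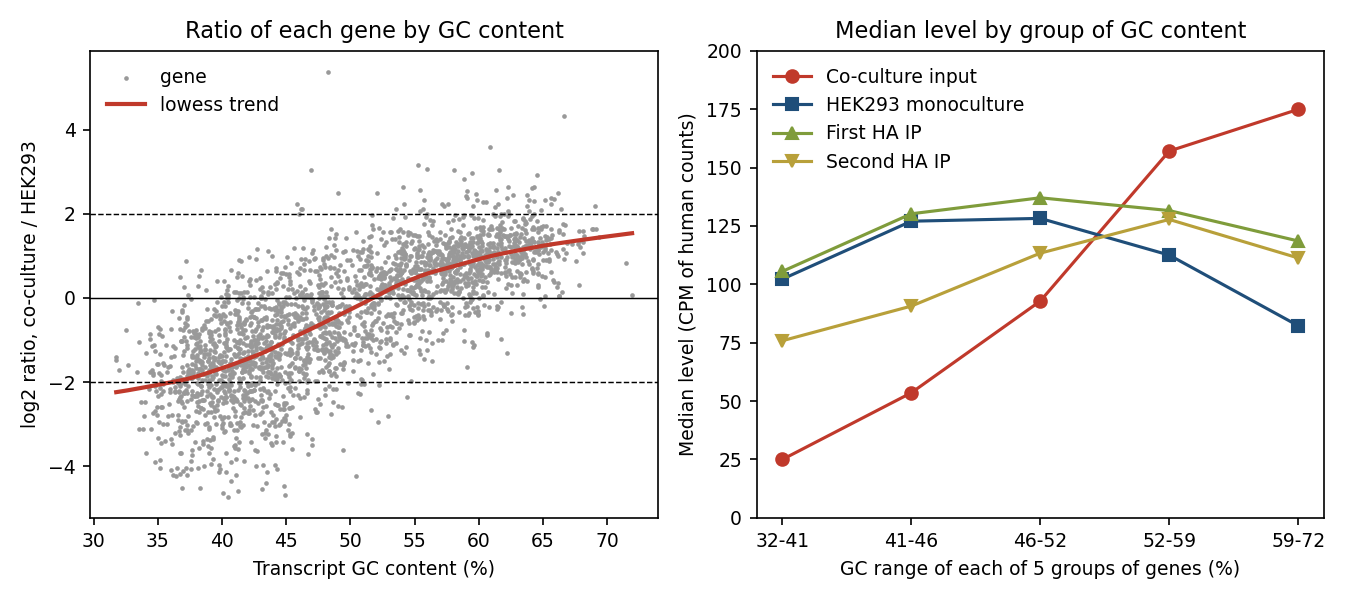
Left, log2 ratio of co-culture to HEK293 for each measured gene against its transcript GC content, with the lowess trend in red and dashed lines at 4-fold. Right, median CPM of human counts in each of the 5 groups of GC content for the co-culture input, for HEK293 and for the HA IPs; the co-culture runs from 25 to 175 CPM across the groups, the other libraries between 75.8 and 137.

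A smooth trend of the log2 ratio on GC content (lowess) was then subtracted, so that each gene is read against genes of like GC content. The SD over genes went from 1.47 to 0.96 and the share within 2-fold from 46.3 to 73.5%. By the 4-fold rule 44 genes were then higher (1.72%) and 78 lower (3.05%). Of these, 17 of the 44 were among the 58 called higher before, and 71 of the 78 among the 403 called lower. The median over all genes moved from −0.31 to 0.02. Values after this step are called GC-removed below. What part base composition has in any single difference was not tested.

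Chromosomes followed the same order. Over the 23 human chromosomes with at least 27 measured genes each, the median log2 ratio of the chromosome ranked with its median GC content at a rho of 0.970. Chromosome 13, at a median GC content of 40.1%, was lowest with a median log2 ratio of −1.68, and chromosome 19, at 59.6%, was highest with 0.92. GC-removed medians of the chromosomes lay between −0.33 (chromosome 20) and 0.20 (chromosome 11).

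A pair of genes that make the same protein differed in their ratios and in their GC content. H3F3A (chromosome 1, 226061851 to 226072001) and H3F3B (chromosome 17, 75776434 to 75785893; hg38) both encode histone H3.3, the variant placed in chromatin outside replication. The GENCODE 29 coding sequences of both have 411 bases and translate into the same 136 residues, but 88 bases differ, 77 of them at the third codon position. At 52 of these positions only H3F3B has a G or C, and at 20 only H3F3A does, so the coding GC content is 51.6% in H3F3A and 59.4% in H3F3B. The first 150 coding bases follow, 5′ to 3′ on the coding strand, with G and C in capitals, to show how the coding sequences of the pair differ; 30 bases differ in this stretch, and 86 and 97 of the bases are G or C.
H3F3A: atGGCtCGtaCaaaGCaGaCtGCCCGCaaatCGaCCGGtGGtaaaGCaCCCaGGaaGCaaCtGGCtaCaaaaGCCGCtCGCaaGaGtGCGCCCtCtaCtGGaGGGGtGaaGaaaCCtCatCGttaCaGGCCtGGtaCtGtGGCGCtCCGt
H3F3B: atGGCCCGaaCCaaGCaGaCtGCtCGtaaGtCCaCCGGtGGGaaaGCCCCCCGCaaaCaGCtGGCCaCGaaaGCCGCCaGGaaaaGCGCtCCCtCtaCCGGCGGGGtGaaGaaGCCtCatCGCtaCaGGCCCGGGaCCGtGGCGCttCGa
H3F3A stood at 211 CPM in the co-culture (59 counts) and 912 CPM in HEK293 (754 counts), with 528 and 631 CPM in the HA IPs. H3F3B stood at 803 CPM (225 counts) and 1153 CPM (953 counts), with 1377 and 1459 CPM in the HA IPs. H3F3A was 4.33-fold lower in the co-culture (3.32 to 5.75) and H3F3B 1.44-fold lower (1.24 to 1.67), so the intervals of counting error do not overlap. The whole transcripts, on which the GC trend was fitted, have 40.5 and 43.1% GC, where the trend stands at −1.62 and −1.32. The log2 ratios were −2.10 and −0.52, and GC-removed −0.47 and 0.80, so with this trend most of the gap between the genes remained. No trend was fitted on coding GC content, in which the genes lie further apart. What part base composition has in the gap was not tested. The pair was chosen after its values were seen, and processed copies of these genes elsewhere in the genome make their counts uncertain.

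**Figure D3:**
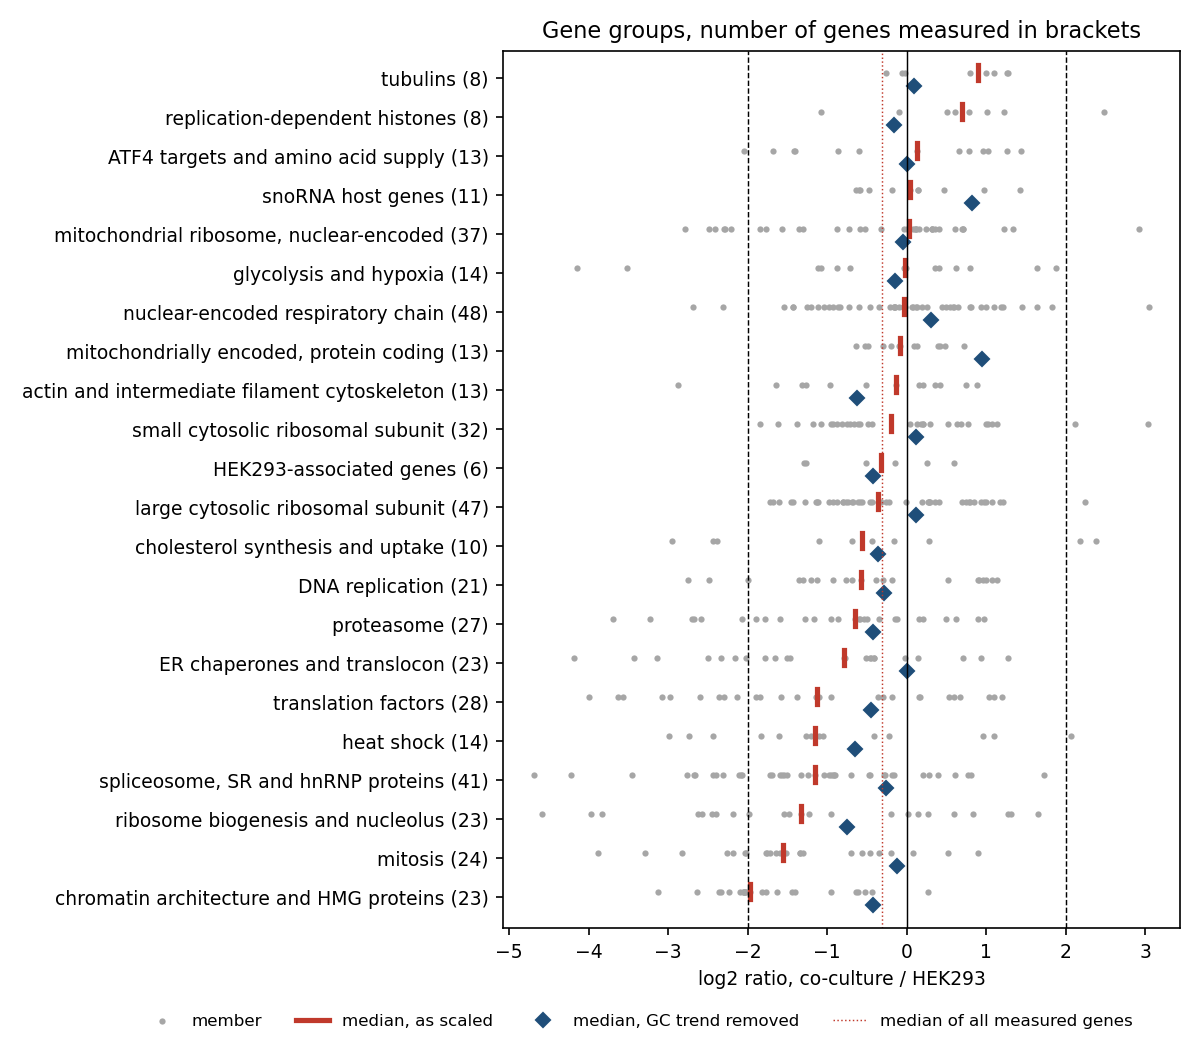
Log2 ratio of co-culture to HEK293 for each measured member (grey points) of the gene groups with 5 or more measured members. Red bars are group medians as scaled and blue diamonds GC-removed medians; dashed lines mark 4-fold and the dotted line the median of all measured genes, −0.31. Chromatin and mitosis genes have the lowest medians, −1.97 and −1.56, and their GC-removed medians are −0.42 and −0.12.

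Gene groups are described by counts and medians, beside −0.31 for all measured genes, with 2.27% called higher and 15.8% lower. Cytosolic ribosomal proteins, which build the ribosome itself, were split. Of 47 measured proteins of the large subunit 19 were higher and 28 lower, with 1 past 4-fold and a median log2 ratio of −0.36 that became 0.12 GC-removed. Of 32 of the small subunit 16 were higher and 16 lower, with 2 past 4-fold upward and a median of −0.20 that became 0.12. As sums, large-subunit genes took 183133 CPM in the co-culture and 160286 in HEK293, a ratio of 1.14 (1.13 to 1.15), and small-subunit genes 130064 and 114020 CPM, also 1.14 (1.13 to 1.15). The HA IPs had 151008 and 162714 CPM for the large and 106214 and 128592 for the small subunit.

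Single ribosomal proteins went in opposite directions. RPL13 stood at 19881 CPM in the co-culture and 10433 in HEK293, a ratio of 1.91 (1.84 to 1.97), while its HA IPs were at 15935 and 3706 CPM, a gap larger than that between the inputs. RPS19, with 17351 and 10152 CPM, had a ratio of 1.71 (1.65 to 1.77), and RPL8, with 16740 and 7447 CPM, one of 2.25 (2.16 to 2.34). RPL5, which carries 5S ribosomal RNA, was 3.22-fold lower (3.0 to 3.47), at 2870 CPM in the co-culture, 9253 in HEK293 and 5767 and 4740 in the HA IPs. RPL13 and RPL8 have GC contents of 56.2 and 63.1% and RPL5 one of 46.2%. Other abundant members with under 50% GC in their longest coding transcript went both ways. RPLP1, at 47.7% GC, stood at 12275 and 7570 CPM, a ratio of 1.62 (1.55 to 1.69). RPS14, at 49% GC, had a ratio of 1.43 (1.37 to 1.5), and RPS3, at 45.2% GC, one of 1.16 (1.10 to 1.21). RPS4X, at 47.6% GC, stood at 5115 and 8408 CPM, 1.64-fold lower (1.55 to 1.74). Many ribosomal protein genes have processed copies, so how reads divide between gene and copy is uncertain.

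RPS10 and RPL36A, past 4-fold upward, had few counts in HEK293. RPS10 had 49 counts in the co-culture and 15 in HEK293, or 175 and 18.1 CPM, a ratio of 9.64 (5.32 to 18.5), with 162 and 247 CPM in the HA IPs. RPL36A had 31 and 17 counts, a ratio of 5.38 (2.89 to 10.4). For RPS10 and RPL36A the co-culture lay near the HA IPs and HEK293 below all 3. Exons of other genes cover 39.4% of the exonic bases of RPS10 and 8.40% of those of RPL36A, and counting without strand cannot tell reads in such bases apart.

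RPL22 itself, whose tagged copy marks both lines, had 33 human counts in the co-culture and 73 in HEK293, or 118 and 88.3 CPM. NIH3T3 alone gave 5 counts on it, which at the scale of the co-culture is 1.90 counts, or 5.76% of the 33. That is over the 5% limit, which was set only for the genes named for the largest ratios. Genes named from the lists were not held to it. By the same measure NIH3T3 could give 12.7% of the co-culture count of SEC62 and 9.50% of that of HMGN5. Whether reads of the transgenes are among the RPL22 counts was not tested. The ratio of 1.33 had an interval of 0.856 to 2.04, so no difference was detectable at this depth. The HA IPs stood at 230 and 184 CPM. Its paralogue RPL22L1 had 44 and 219 counts, or 157 and 265 CPM, 1.69-fold lower in the co-culture (1.22 to 2.39), with 207 and 174 CPM in the HA IPs.

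Translation factors were mostly lower. Of 28 measured, 20 were lower and 8 higher, with 9 past 4-fold lower and 0 higher and a median of −1.13 (−0.45 GC-removed). EIF5B, which joins the ribosomal subunits, had 2 counts in the co-culture and 139 in HEK293, 23.6-fold lower (6.40 to 196). EIF2S3, a subunit of the initiator-tRNA carrier eIF2, had 39.3 CPM in the co-culture and 529 in HEK293, 13.5-fold lower (7.45 to 27.2), with 148 and 36.3 CPM in the HA IPs. The second HA IP was thus as low as the co-culture for this gene. EIF3E was at 39.3 and 504 CPM, with 371 and 217 CPM in the HA IPs, which places the co-culture below all 3. The elongation factor EEF1A1 was 2.14-fold lower (1.92 to 2.40), and EEF2, with a GC content of 59.9%, was 1.45-fold higher (1.28 to 1.63).

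Genes of ribosome biogenesis and the nucleolus had a median of −1.33, with 15 of 23 measured lower, 8 past 4-fold lower and 0 higher. GC-removed it was −0.75, the lowest of the groups with 5 or more members, with 17 of 23 below the trend. Their sum was 4629 CPM in the co-culture, 10639 in HEK293 and 10108 and 7020 in the HA IPs. NOP58, a core protein of box C/D small nucleolar ribonucleoproteins (chromosome 2, 202265716 to 202303666), had 2 counts in the co-culture and 210 in HEK293, 35.6-fold lower (9.73 to 296), with 163 and 87.4 CPM in the HA IPs. NPM1, the nucleolar chaperone nucleophosmin, had 306 and 4135 counts, or 1092 and 5002 CPM, 4.58-fold lower (4.08 to 5.16), with 4085 and 2338 CPM in the HA IPs. The RNA helicase DDX21 was at 28.6 and 455 CPM and nucleolin (NCL) at 336 and 1334 CPM. For NOP58, NPM1, DDX21 and NCL the co-culture lay below HEK293 and both HA IPs. FBL, the methyltransferase fibrillarin, and NHP2 of the box H/ACA particles had higher ratios, 1.20 (0.944 to 1.52) and 1.79 (1.51 to 2.11), at GC contents of 57.9 and 57.1%.

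Proteins that process RNA followed. Among 41 measured spliceosomal, SR and hnRNP proteins 34 were lower and 7 higher, with 12 past 4-fold lower and 0 higher. Their median was −1.16 at a median GC content of 42.7%, and −0.25 GC-removed. SNW1, a splicing factor and transcriptional coregulator, had 0 counts in the co-culture and 74 in HEK293. That is 8.36-fold lower against a floor of 3 counts per library, with a lower interval bound of 6.63. U2SURP had 3 and 218 counts, 24.6-fold lower (8.32 to 120), and HNRNPR 17.8 and 232 CPM, 13.0-fold lower (5.48 to 40.5). The core Sm proteins differed less: SNRPD1 was 1.62-fold lower (1.38 to 1.91), and SNRPB was 1.71-fold higher (1.51 to 1.92).

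MALAT1, a long RNA kept in nuclear speckles (chromosome 11, 65497688 to 65506516), was 1 of the 2 measured of 14 nuclear non-coding RNAs, of which 1 was lower and 1 higher, with a median of −1.55 that became 0.04 GC-removed. It stood at 221 CPM in the co-culture (62 counts), 2906 in HEK293 (2402 counts) and 311 and 423 in the HA IPs. It was 13.1-fold lower in the co-culture (10.2 to 17.2), with a GC-removed log2 ratio of −2.06. Here HEK293 lay far above the co-culture and the HA IPs, while the human counts of the V5 IPs gave 1001 and 1602 CPM. The hosts of small nucleolar RNAs, spliced non-coding transcripts, had no member past 4-fold among 11 measured. Their median of 0.04 became −0.04 with TMM scaling and 0.82 GC-removed. GAS5 was at 196 CPM in the co-culture and 300 in HEK293, and SNHG15 at 357 and 131 CPM.

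Chromatin architecture and HMG proteins had the lowest median of the groups with 5 or more members, −1.97, with 22 of 23 lower, 11 past 4-fold lower and 0 higher. GC-removed, the median was −0.42 and 0 were past 4-fold either way. HMGN5, a nucleosome-binding protein, had 4 and 126 counts, 10.7-fold lower (4.07 to 39.8). HMGB1, an abundant DNA-bending protein, stood at 175 CPM in the co-culture, 898 in HEK293 and 1014 and 700 in the HA IPs, 5.13-fold lower (3.84 to 7.0). SMC1A of the cohesin ring was 6.97-fold lower (3.30 to 17.7), and the histone variant H2AFZ 1.93-fold lower (1.79 to 2.08). Replication-dependent histones, made in S phase, had 8 of 52 measured, 6 of them higher, with a median of 0.70 at a median GC content of 58.8% that became −0.16 GC-removed. HIST1H1C was at 982 and 417 CPM, a ratio of 2.35 (2.0 to 2.76), while HIST1H4C was at 2138 and 4531 CPM, 2.12-fold lower (1.94 to 2.31). HIST1H3H, the 1 member past 4-fold, had 16 and 6 counts.

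Cell cycle genes had lower medians for mitosis than for replication, an order that turned when the GC trend was removed. Of 24 measured mitosis genes 21 were lower and 3 higher, with 7 past 4-fold lower, 0 higher and a median of −1.56 at 41.8% GC. GC-removed, that median was −0.12. SMC2, the ATPase core of condensin, had 1 count in the co-culture and 85 in HEK293, 28.8-fold lower (5.03 to 1151), with 35.6 and 24.7 CPM in the HA IPs. The checkpoint protein MAD2L1 had 25 and 200 CPM and cyclin B1 (CCNB1) 111 and 384 CPM, 3.47-fold lower (2.39 to 5.19). UBE2C, the ubiquitin-conjugating enzyme of the anaphase-promoting complex, was 1.87-fold higher (1.62 to 2.16), and Aurora kinase B (AURKB) had a ratio of 1.06 (0.804 to 1.38).

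DNA replication genes had 7 of 21 higher and 14 lower, with 2 past 4-fold lower and a median of −0.58 (−0.28 GC-removed). RRM1, the large subunit of ribonucleotide reductase, had 2 and 57 counts, 9.66-fold lower (2.55 to 81.7). The helicase subunit MCM5 was at 746 and 396 CPM, a ratio of 1.89 (1.58 to 2.25), and thymidine kinase TK1 at 1235 and 561 CPM, a ratio of 2.20 (1.91 to 2.53). The sum over the list had a ratio of 1.08 (1.01 to 1.15), above 1 while the median lay below it.

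Chaperones were lower in most cases. Of 14 measured heat shock genes 11 were lower, 3 of them past 4-fold, and 1 was past 4-fold higher. The median was −1.15 and, GC-removed, −0.65, with 11 of 14 below the trend. HSP90AA1, the inducible cytosolic HSP90, had 118 CPM in the co-culture, 965 in HEK293 and 1211 and 701 in the HA IPs, 8.20-fold lower (5.79 to 12). Its constitutive paralogue HSP90AB1, of somewhat higher GC content (48.1 against 45.2%), had 446, 1033, 1295 and 810 CPM in the same order, 2.32-fold lower (1.92 to 2.82). The co-culture was the lowest of the 4 libraries for both genes. The mitochondrial chaperonin HSPD1 was 3.60-fold lower (2.85 to 4.60). HSF1, the factor that drives the heat shock response, was the member past 4-fold higher, with 16 and 9 counts and a ratio of 5.25 (2.18 to 13.5).

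In the endoplasmic reticulum, 19 of 23 measured chaperone and translocon genes were lower, with 7 past 4-fold lower and 0 higher and a median of −0.79 that became 0.01 GC-removed. SEC62, a translocation subunit, had 3 and 213 counts, 24.1-fold lower (8.12 to 118), and SRP9 of the signal recognition particle 78.5 and 719 CPM, 9.15-fold lower (5.99 to 14.7). SEC61B had a ratio of 1.10 (0.979 to 1.24), and SSR4, of 62.9% GC, one of 1.92 (1.65 to 2.22). Proteasome genes had 21 of 27 lower and 6 past 4-fold lower, with a median of −0.65 (−0.42 GC-removed). PSMC6, an ATPase of the regulatory particle, had 2 and 112 counts, 19.0-fold lower (5.13 to 159), and PSMB6, a catalytic subunit, was 1.86-fold higher (1.67 to 2.08).

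Mitochondrially encoded messenger RNAs were close to their HEK293 level. Of 13, 6 were higher and 7 lower, none past 4-fold, with a median of −0.09 and a sum of 28159 against 29863 CPM, a ratio of 0.943 (0.919 to 0.967). At a median GC content of 44.3%, all 13 lay above the GC trend, by a median of 0.95. The 2 mitochondrial ribosomal RNAs were lower: MT-RNR2 stood at 26074 and 51272 CPM, 1.97-fold lower (1.92 to 2.02), and MT-RNR1 at 1492 and 2279 CPM, 1.53-fold lower (1.37 to 1.70). GC-removed, their median log2 ratio turned from −0.79 to 0.36. The 37 mitochondrial genes together made up 5.58% (5.49 to 5.66) of the co-culture's human counts and 8.35% (8.29 to 8.41) of those of HEK293. Protein-coding ones alone took 2.82% (2.75 to 2.88) and 2.99% (2.95 to 3.02), so most of the gap lay in ribosomal RNA, with 2.76 and 5.36%. In the HA IPs, which select cytosolic ribosomes, all 37 took 0.354 and 0.466%.

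Nuclear-encoded respiratory chain genes were balanced, 23 higher and 25 lower of 48, with 1 past 4-fold higher and 2 lower, a median of −0.04 (0.30 GC-removed) and sums of 30911 and 29519 CPM. NDUFA13, a complex I subunit, had 41 and 12 counts, a ratio of 10.1 (5.20 to 21.1), with 154 and 180 CPM in the HA IPs against 146 in the co-culture and 14.5 in HEK293. UQCRC2 of complex III was 5.23-fold lower (3.16 to 9.30), and SDHD of complex II 7.21-fold lower (3.42 to 18.3). COX4I1 of complex IV had a ratio of 1.05 (0.953 to 1.17). Proteins of the mitochondrial ribosome had 20 of 37 higher and 17 lower, with 1 past 4-fold higher and 6 lower. Their median was 0.03, but −0.05 with TMM scaling, −0.02 scaled without mitochondrial genes, −0.04 GC-removed and −0.72 without overlapping genes. MRPL50 was 8.39-fold lower (3.17 to 31.4), and MRPS12 2.35-fold higher (2.03 to 2.71).

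Glycolysis and hypoxia genes had a median of −0.02 over 14 measured, with 6 higher, 8 lower and 2 past 4-fold lower; it became 0.003 with median-of-ratios scaling, 0.03 with thinned HEK293 counts and 0.35 with a filter of 100 CPM. Their sum was 22908 against 15414 CPM, a ratio of 1.49 (1.44 to 1.53). GAPDH carried most of that, at 12072 CPM in the co-culture, 6953 in HEK293 and 7134 and 6745 in the HA IPs, a ratio of 1.74 (1.66 to 1.81). Here the co-culture was above the other 3 libraries, which were alike; GAPDH has a GC content of 58.8% and a GC-removed log2 ratio of −0.02. SLC16A1, a lactate transporter, had 0 and 50 counts, 5.65-fold lower against the 3-count floor, with a lower interval bound of 4.43. In cholesterol synthesis and uptake 3 of 10 measured genes were higher and 7 lower. MVD and PMVK of the mevalonate pathway were past 4-fold higher, with ratios of 5.50 (3.77 to 8.12) and 4.69 (3.37 to 6.57). ACLY, IDI1 and HMGCS1 were past 4-fold lower, with 1, 4 and 3 counts in the co-culture and 43, 77 and 59 in HEK293. The median was −0.56 (−0.36 GC-removed), and 0.28 with a filter of 100 CPM and 0.06 without overlapping genes.

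Genes of amino acid supply and ATF4 targets had 7 of 13 higher and 6 lower, 1 past 4-fold lower, and a median of 0.13 (0.01 GC-removed), which turned to −0.17 with a filter of 20 CPM and −0.39 with none. ATF4 itself, the transcription factor of the integrated stress response, was at 575 and 238 CPM, a ratio of 2.41 (1.95 to 2.98), and PHGDH, the entry enzyme of serine synthesis, at 1453 and 917 CPM, 1.58 (1.40 to 1.79). SLC38A2, an amino acid transporter, had 3 and 46 counts. Of 22 p53 targets 2 were measured: MDM2 with 2 and 43 counts, 7.29-fold lower (1.90 to 62.1), and FDXR with 26 and 17 counts, a ratio of 4.51 (2.36 to 8.86).

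Among cytoskeletal genes, tubulins had 5 of 8 higher and none past 4-fold, with a median of 0.90 that became 0.09 GC-removed. TUBB stood at 1321 CPM in the co-culture and 547 in HEK293, a ratio of 2.42 (2.10 to 2.78), while TUBA1B stood at 264 and 276 CPM, at nearly the same GC content (52.6 and 52.4%). Actin and intermediate filament genes had 6 of 13 higher and 7 lower, 1 past 4-fold lower, with a median of −0.14 (−0.63 GC-removed), which turned to 0.16 with a filter of 100 CPM and 0.01 without overlapping or without cross-counted genes. ACTG1 was 1.68-fold higher (1.54 to 1.83), ACTB had a ratio of 0.910 (0.822 to 1.00), and MYL12A was 8.98-fold lower (3.41 to 33.6).

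Of 40 genes of cell adhesion and junctions 2 were measured. CTNNB1, which encodes beta-catenin of adherens junctions and Wnt signalling (chromosome 3, 41194741 to 41260096), had 78 counts in the co-culture and 1263 in HEK293, or 278 and 1528 CPM, 5.49-fold lower (4.36 to 6.99). Its HA IPs were at 195 and 232 CPM, and the human counts of the V5 IPs gave 527 and 697 CPM. HEK293 thus stood above the co-culture input and all of these IPs, with the V5 IPs in between. Its GC-removed log2 ratio was −1.06. JUP, plakoglobin, had 13 and 45 counts, with a ratio of 0.852 (0.422 to 1.61). In collagen and matrix, 1 of 40 genes was measured, the protease inhibitor TIMP1 at 635 and 284 CPM, 2.23-fold higher (1.83 to 2.73).

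Signalling lists were mostly under the detection limit. None of 17 ERK and FGF feedback genes and none of 20 YAP and TGF-beta targets was measured, and 12 and 13 of them had 0 counts in the co-culture. A count of 0 there allows up to 10.7 CPM on the 3-count floor, so such genes are not detectable rather than absent. ID2 and ID3, inhibitors of basic helix-loop-helix factors and the 2 measured of 22 BMP, Wnt and Notch targets, were 2.25-fold (1.19 to 4.70) and 2.01-fold lower (1.56 to 2.64), with GC-removed log2 ratios of −1.34 and −1.68. MYC, the 1 measured of 24 MYC and immediate early genes, was at 525 and 247 CPM, a ratio of 2.13 (1.71 to 2.64), with 121 and 94.0 CPM in the HA IPs. Among 30 interferon response genes 4 were measured. HLA-B and HLA-C, which present peptides, had ratios of 2.42 and 2.58, and B2M, their light chain, was 2.74-fold lower (2.06 to 3.70). Their median was 1.11 (0.35 GC-removed), with none past 4-fold, and turned to −0.42 with no filter and −0.05 without overlapping genes. RELA, the 1 of 18 NF-kB and cytokine genes measured, had 17 and 32 counts, a ratio of 1.57 (0.816 to 2.91).

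The largest ratios upward belonged to genes that were low in HEK293 and not in the HA IPs in most cases. MIF, the cytokine macrophage migration inhibitory factor (chromosome 22, 23894004 to 23895227), had 100 counts in the co-culture and 12 in HEK293, or 357 and 14.5 CPM, a ratio of 24.6 (13.5 to 49.2). Its HA IPs stood at 366 and 536 CPM. NME2, a nucleoside diphosphate kinase (chromosome 17, 51165435 to 51171747), had 199 and 46 counts, or 710 and 55.6 CPM, a ratio of 12.8 (9.22 to 18), with 643 and 940 CPM in the HA IPs. KRTCAP2 had a ratio of 9.99 (5.28 to 20.2) and MRPS24 one of 8.16 (4.60 to 15.2), with the HA IPs at 106 and 162 CPM for KRTCAP2 and 144 and 188 CPM for MRPS24. For MIF, NME2, KRTCAP2 and MRPS24 the co-culture was near the HA IPs and HEK293 far below.

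WDR83, MRPL38, SCO2, LMF1 and AL391244.1 had 3 to 6 counts in HEK293 and 15 to 24 in the co-culture, with lower interval bounds of 3.37 to 4.70. LMF1, WDR83 and AL391244.1 had at most 16.4 CPM in the HA IPs, so there the co-culture, at 53.5 to 85.7 CPM, was above the other 3 libraries. AL450405.1 had 38 and 10 counts. Genes that share exonic bases were frequent here: 39.7% of the 58 higher genes (23) had over 10% of their exonic bases in exons of another gene, against 11.2% of the 403 lower genes (45) and 21.5% of all measured genes. The share was 61.9% for MIF, 22.9% for NME2, 63.0% for WDR83 and 83.9% for SCO2. For KRTCAP2 it was 18.4%, for MRPS24 23.2%, for MRPL38 41.1% and for NDUFA13 21.0%. LMF1, at 4.79%, AL391244.1, at 5.50%, and AL450405.1, at 0, lay under 10%. What part the overlap has in these ratios was not tested.

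**Figure D4:**
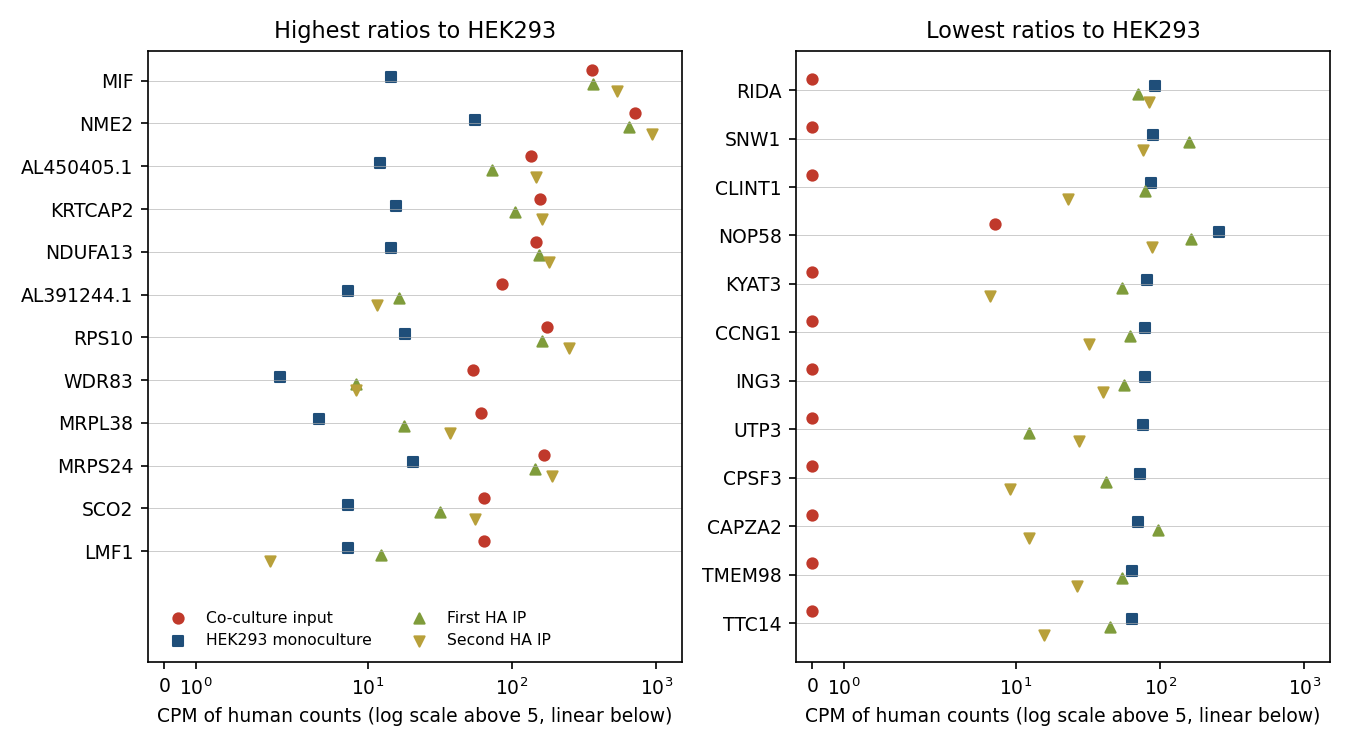
Level (CPM of human counts) of the 12 genes with the highest (left) and the 12 with the lowest (right) log2 ratio of co-culture to HEK293, 1 symbol for each of the 4 libraries, on an axis that is logarithmic above 5 CPM and linear below. On the left HEK293 lies below the co-culture in every gene by choice; on the right the co-culture is at 0 in every gene except NOP58, at 7.14 CPM.

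Of the 12 lowest ratios, 11 belonged to genes with 0 co-culture counts, a level below 10.7 CPM on the 3-count floor. RIDA, which removes reactive enamines, had 76 counts in HEK293 (91.9 CPM), with 69.9 and 83.3 CPM in the HA IPs. Against the floor it was 8.59-fold lower in the co-culture, with a lower interval bound of 6.81. CLINT1, a clathrin-associated protein, was 8.02-fold lower against the floor, with a lower bound of 6.35. CCNG1, cyclin G1, and ING3 were both 7.34-fold lower against it, with a lower bound of 5.80. UTP3, a ribosomal RNA processing factor, had 76.2 CPM in HEK293 and 12.3 and 27.2 in the HA IPs, and CPSF3, the endonuclease of messenger RNA 3′ ends, 72.6 CPM and 42.5 and 9.07. KYAT3, CAPZA2, TMEM98 and TTC14 were 5.99- to 7.57-fold lower against the floor, with lower bounds of 4.70 to 5.99. RIDA and SNW1 were well above the co-culture in HEK293 and both HA IPs, whereas for KYAT3 and CPSF3 the second HA IP, at 6.59 and 9.07 CPM, was also under 10.7 CPM. TMEM98, at 50.4% GC, was the farthest from the GC trend on the lower side of all measured genes, with a GC-removed log2 ratio of −4.01, a remark made after its values were seen.

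Some genes, chosen after their values were seen, lay far above the GC trend with a modest ratio or a low GC content. RNF7, a RING protein of cullin ligases with 41.5% GC, stood at 767 CPM in the co-culture, 416 in HEK293 and 857 and 1259 in the HA IPs, a ratio of 1.84 (1.55 to 2.19) that lay 2.39 above the trend on the log2 scale. SRI, the calcium-binding protein sorcin, stood at 510, 356, 644 and 659 CPM in that order and lay 2.37 above the trend. RPL36A lay 3.14 and RPS10 3.78 above it. In all 4 genes the co-culture was above HEK293, and HEK293 was the lowest of the 4 libraries.

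Fewer human genes were detected in the co-culture at equal depth. It had 8729 human genes with at least 1 count. HEK293 had 13252 at full depth and an expected 10192 when its counts were reduced to 280163, of which the co-culture number is 85.6%. The HA IPs reduced likewise gave 9701 and 8784, so the co-culture was below HEK293 and the first HA IP and near the second. The 10 genes with most counts held 15.2% of the human counts of the co-culture and 12.9% of those of HEK293.

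**Figure D5:**
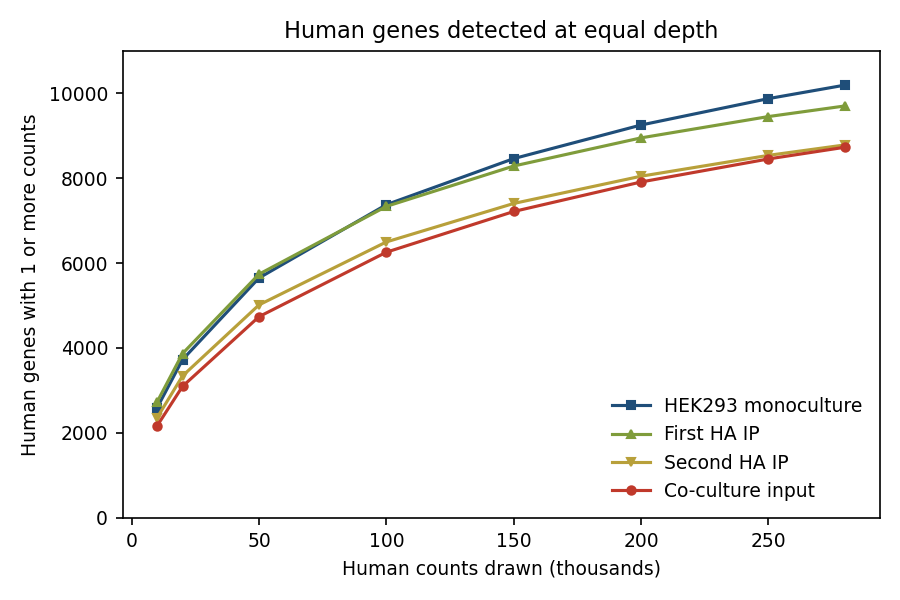
Expected number of human genes with at least 1 count (vertical) when human counts are drawn down to the number on the horizontal axis, for the co-culture input, HEK293 and the HA IPs. At 280163 counts the curves end at 8729, 10192, 9701 and 8784 genes.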

How the data were processed

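The deposited files hold whole-number read counts per gene for each library. The authors made them with featureCounts 1.5.2 on a joint human and mouse annotation, per the file headers, counting reads on exons of a gene without regard to strand. Further tools listed in the submitters' processing notes are STAR 2.5.2, Trim Galore, bcl2fastq and SAMtools, with hg38 as the build. Neither mouse build nor annotation release was given in the sources used here. Every one of the 58721 human gene identifiers is in GENCODE 29 with equal coordinates, and symbols, overlaps, transcript GC content and coding sequences come from that release.

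Human genes were taken by chromosome name, and counts were scaled to the human counts of each library. Ratios carry a prior count of 2, and their exact conditional binomial 95% intervals use raw counts. With 1 library a group no test was made. A 0 was set against a floor of 3 counts, a figure that leaves out counting error in HEK293. The GC trend is a lowess fit with a span of 0.3 and 3 passes. HEK293 detection at equal depth is the hypergeometric expectation. The ratio and interval steps were tested on simulated data. TMM factors came from edgeR 4.0.16 in R 4.3.3; statsmodels 0.14.6, scipy 1.17.1, numpy 2.4.6, pandas 2.3.3 and matplotlib 3.10.9 under Python 3.11.15 did the rest.

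The named genes are the 12 in each direction with the largest log2 ratio past 4-fold, leaving out genes where NIH3T3 counts could give over 5% of the co-culture count. They also include up to 4 of each list with most CPM and up to 4 past 4-fold, the 10 genes with most counts in either library, and RPL22 and RPL22L1. Not every gene the rule takes is printed, and some are not reported here. The comparison, the gene lists and the rule were chosen with earlier results of these data known. Alternatives covered the prior count, the CPM filter, the scaling, gene subsets, thinned HEK293 counts, the GC trend and an interval rule.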

Additional observations from a re-analysis of the deposited data

How the results depend on the processing

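The 58 higher and 403 lower genes became 138 and 752 with a filter of 20 CPM, 31 and 203 with 100 CPM, and 178 and 1148 with no filter. Leaving out genes with over 10% overlap gave 35 higher genes, and an interval wholly past 2-fold gave 181. Removing the GC trend gave 78 lower genes. Higher genes made up 12.6% of calls as reported, 36.1% with the GC trend removed and 28.2% by the interval rule. The remaining settings, namely prior counts of 0.5 and 5, TMM factors, median-of-ratios factors, scaling without mitochondrial genes, cross-counted genes left out, protein-coding genes only and thinned HEK293 counts, gave 40 to 73 higher and 317 to 445 lower genes. With HEK293 thinned to the co-culture depth 42 of 58 higher and 326 of 361 lower genes were shared with the main calls. The mitochondrial share with protein-coding genes only was 2.82% in the co-culture and 2.99% in HEK293. Detection at equal depth was 84.0 to 85.6% of HEK293 with 1 choice changed at a time, and 82.4% for protein-coding genes at 3 counts or more. Removing the GC trend moved 27 of 31 list medians by more than the tolerance and changed the sign of 10. The cause of these changes was not tested. Depth limits genes under about 14 co-culture counts, the filter of 50 CPM. Most of the 403 lower genes lay under it, with a median of 14.3 CPM in the co-culture, and passed through HEK293 alone. Of the lower calls, 166 rest on 1 to 3 counts and 29 on 0. No paired analysis was possible because each compared group has 1 library.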
